A study of Mus musculus with 12 samples.

Results

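The comparison described here is that of a Western diet with a control diet in wild-type mice, made on 6 of the 12 libraries of a mouse study of early fatty liver inflammation (MASH). The WDSW-WT group held 3 mice given a Western diet and sugar water, and CDNW-WT held 3 mice given a control diet and normal water. Both groups were male wild-type mice of the C57BL6-NJ background, aged 226, 226 and 232 days on Western diet and 231, 231 and 232 days on control diet. The other 6 libraries came from mice with a constitutive knockout of sphingosine kinase 2 (SphK2), 3 on each diet, and are used here for the spread and for a test of whether the diet difference depends on genotype. Total RNA was counted with barcoded probes of a NanoString metabolic panel, a method that counts colour-coded probes on single RNA molecules. The table lists a normalized signal for 736 rows, and gene names are read only for the 111 rows from A2m to Cat, because the match of names to values is not certain in later rows.

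A Western diet with sugared water supplies fat, cholesterol and sugar together and is a common way to bring about fatty liver in mice. The liver meets such a load by storing triglyceride, burning fatty acids in mitochondria and peroxisomes, and exporting lipid on apolipoprotein-bearing particles. Amino acid breakdown, the urea cycle and the stress response led by the transcription factor Atf4 share the same cells and respond to feeding and fasting.

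The labels name no tissue. Of 17 hepatocyte markers, 14 had a row from A2m to Cat, and their summed signal was 476289 to 531972 in Western-diet mice and 482407 to 516514 in control-diet mice. Blk and Btk, the B-cell markers with a row, summed to 42.0 to 45.8 on Western and 42.0 to 48.7 on control diet, which is at or near the floor. Ampd1 and Ak1, listed for skeletal muscle, summed to 58.8 to 67.6 on Western and 53.7 to 63.5 on control diet. Cacng7 and Ak5, listed for brain, summed to 72.8 to 87.2 on Western and 78.35 to 119.7 on control diet. No macrophage, T-cell, stellate-cell or adipocyte marker of the list lay in these rows, so shares of these cells could not be followed, and in bulk RNA fewer cells of a type and less RNA per cell cannot be told apart. The lowest listed value is 21. Western-diet replicate 3 had the fewest recovered counts (1138914, against 1738390 to 1873097 in the other 5 wild-type libraries) and 185 rows at 21, against 98 to 120. In that library 1 count was worth 1.5 units and the lowest value above the floor was 31.6, so a listed 21 there can stand for anything below 31.6.

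A pair of control-diet libraries lay with the genotype opposite to their label in many rows. In 99 of 736 rows the other 5 wild-type and the other 5 knockout libraries did not overlap, and the library labelled control-diet wild-type replicate 2 lay nearer the knockout side in 84 of these and nearer the wild-type side in 15. Among the rows from A2m to Cat it lay nearer the knockout side in 16 of 16. The library labelled control-diet knockout replicate 2 lay nearer the wild-type side in 68 of the 99 rows, and in 10 of the 16. Whether the labels of these libraries are right was not tested. Both are kept under their labels, and differences that move without control-diet wild-type replicate 2 are given without it as well. No row passed limma's diet test in wild type with both libraries left out (0 rows), a choice made after the data were seen.

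No row passed limma's test between the diets in wild-type mice at an adjusted p under 0.05 (0 of 736 rows, or 0%), and the smallest adjusted p of the 111 named genes was 0.563. At an unadjusted p under 0.05 there were 15 of these 111 genes, 7 higher and 8 lower on Western diet (13.5%), against 49 of all 736 rows (6.66%; 2.99% higher and 3.67% lower). The values of the 3 Western-diet and the 3 control-diet mice did not overlap in 15 of the 111 genes (13.5%), again 7 higher and 8 lower, against 81 of all rows (11.0%; 4.35% higher and 6.66% lower). The named genes' share was thus above that of the whole table by unadjusted p and near it by overlap. With 3 mice against 3, an exact two-sided permutation test of a single gene cannot go below p = 0.1. The genes are therefore described below by their values in each mouse, with the fitted difference on the log2(value + 1) scale, its standard error (SE) and its 95% interval.

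**Figure D1:**
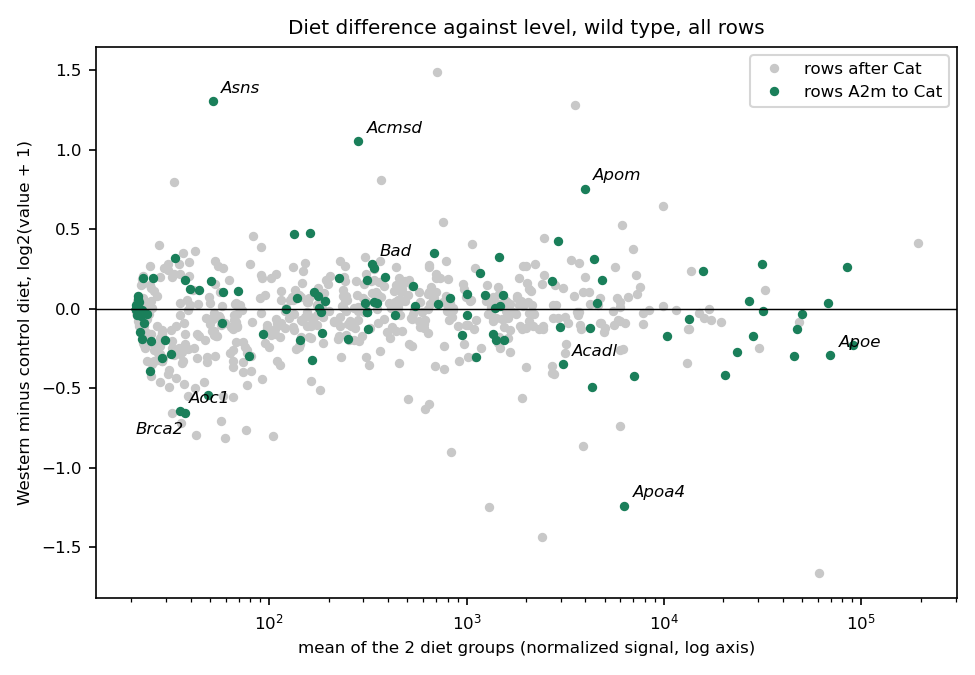
Each point is a row of the table, with the mean signal of the Western-diet and control-diet wild-type groups on a log axis (x) and the Western minus control difference on the log2(value + 1) scale (y). Rows from A2m to Cat are green and later rows grey. Most of the 111 green points lie near 0, and the widest departures are those of Asns, Acmsd, Apom and Apoa4, none of which passed the test.

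The estimates for fatty acid oxidation and ketone metabolism were negative, without passing the test. All 4 genes of the list reported here had a negative estimate, 2 of them with no overlap between the groups, and none passed. Over the 666 rows above the floor in some wild-type library, 375 estimates were lower, and 49 rows did not overlap with Western diet lower. The median log2 difference of the 4 genes was -0.26, against -0.03 over those rows. Acadl, which starts the oxidation of long-chain acyl-CoA in mitochondria (GRCm38.p6, chr1:66830839-66863309), had 2823, 3045 and 2292 in the Western-diet mice and 3349, 3486 and 3487 in the control-diet mice. Every Western-diet mouse lay below every control-diet mouse, and the control-diet mice differed little among themselves. The group means were 2720 ± 387 on Western and 3441 ± 79.2 on control diet (SD, n = 3 each), a log2 difference of -0.35 ± 0.10 (SE; 95% interval -0.57 to -0.12; adjusted p = 0.563).

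Acot12, an acyl-CoA thioesterase that acts on acetyl-CoA, had 1266, 1340 and 1245 on Western diet and 1344, 1546 and 1421 on control diet. The highest Western-diet mouse lay just below the lowest control-diet mouse, and the log2 difference was -0.16 ± 0.08, or -0.11 without control-diet replicate 2.

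Acat1, the acetoacetyl-CoA thiolase of ketone body metabolism, had 5712, 7595 and 4805 on Western diet and 8021, 8885 and 7094 on control diet. Here Western-diet replicate 2 lay within the control range, so the groups overlapped (log2 difference -0.43 ± 0.17; 95% interval -0.81 to -0.04; adjusted p = 0.712). Acaa2, the last thiolase of the mitochondrial spiral, had 9673, 10867 and 8776 on Western diet and 11059, 10610 and 11203 on control diet, and its groups overlapped too (-0.17 ± 0.11). Western-diet replicate 3 held the lowest value of each of these 4 genes. Without it the log2 differences were -0.23 for Acadl, -0.27 for Acat1, -0.14 for Acot12 and -0.10 for Acaa2, each still negative. The part of that library's lower count in these values was not tested.

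**Figure D2:**
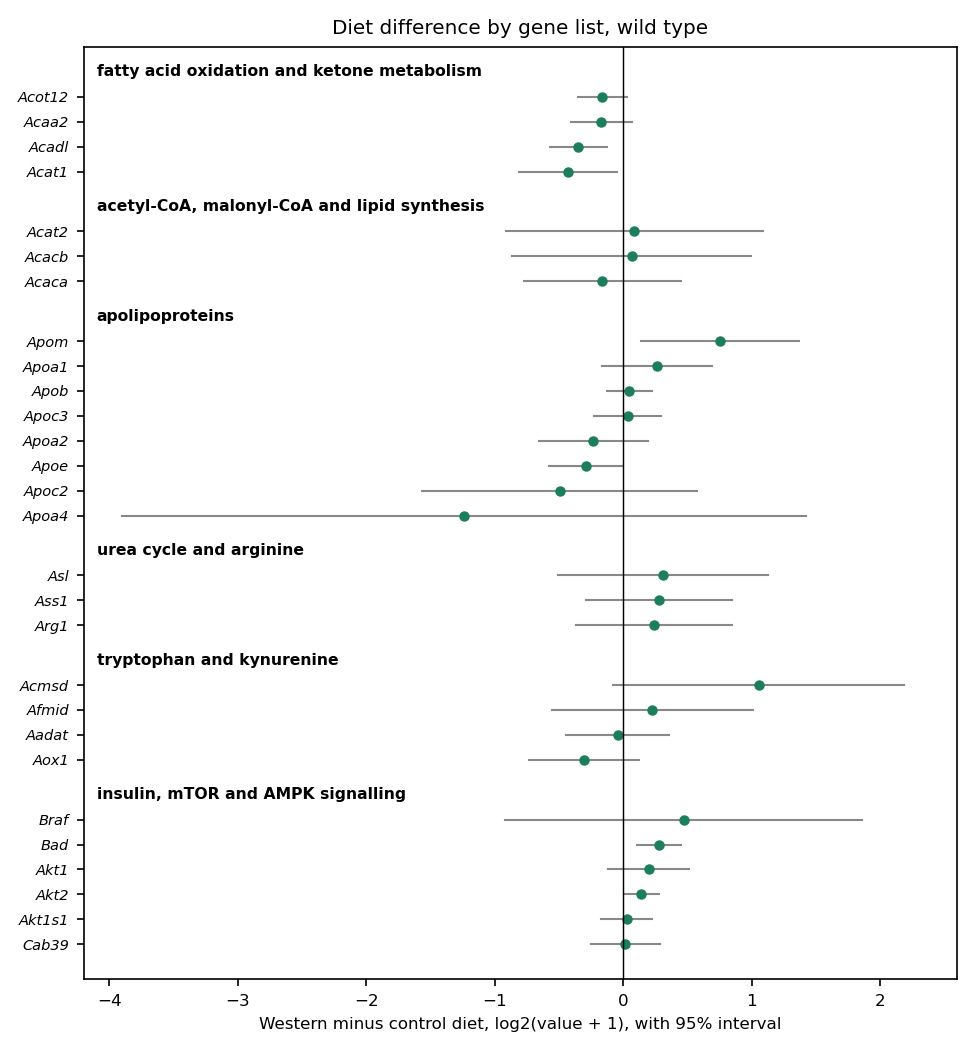
Fitted Western minus control difference in wild-type mice (points) with its 95% interval (lines) on the log2(value + 1) scale for the members of 6 gene lists. All 4 genes of the list of fatty acid oxidation and ketone metabolism lie left of 0, and all 3 urea cycle genes right of 0. The interval of Apoa4 is the widest shown, from -3.90 to 1.42.

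Among the apolipoproteins, 4 of 8 had a higher and 4 a lower estimate, 1 gene on each side did not overlap, and none passed. Apom, the carrier of sphingosine-1-phosphate in high-density lipoprotein (chr17:35128997-35131801), had 4100, 4866 and 5805 on Western diet and 4080, 2005 and 2947 on control diet. The lowest Western-diet mouse was nearly level with the highest control-diet mouse. The means were 4924 ± 854 and 3011 ± 1039 on Western and control diet (SD, n = 3 each), a ratio of 1.69 and a log2 difference of 0.75 ± 0.27 (95% interval 0.14 to 1.37; adjusted p = 0.563). Without control-diet replicate 2, the lowest of the 6, the log2 difference was 0.49.

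Apoe, the ligand by which remnant particles are taken up, had 63000, 66391 and 57512 on Western diet and 70195, 89643 and 69974 on control diet. All Western-diet mice lay below all control-diet mice, and control-diet replicate 2 stood well above the rest. The log2 difference was -0.29 ± 0.12 (adjusted p = 0.712), and -0.17 without control-diet replicate 2. Apoa4, made in gut and liver and found on lipid-rich particles, had 2254, 1564 and 2662 on Western diet and 2071, 27043 and 2208 on control diet. Apart from control-diet replicate 2, all mice had similar values. The fitted log2 difference was -1.24 ± 1.17 with that mouse and -0.02 without it. Apoc2, the activator of lipoprotein lipase, had 4229, 2690 and 3384 on Western diet and 2875, 7900 and 4742 on control diet, again with control-diet replicate 2 the highest (-0.49 ± 0.47, and -0.13 without it).

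Of the other abundant transcripts of this group, Apoc3 and Apob had the narrowest intervals. Apoc3, an inhibitor of lipoprotein clearance, had 64832, 67472 and 72519 on Western diet and 66229, 67622 and 65600 on control diet. Apob, the structural protein of very-low-density lipoprotein, had 27159, 25044 and 29986 on Western diet and 25578, 27936 and 25781 on control diet. The 95% intervals of the log2 difference were -0.22 to 0.30 for Apoc3 and -0.13 to 0.22 for Apob. Apoa1, the main protein of high-density lipoprotein, had 73985, 109866 and 93596 on Western diet and 96996, 74444 and 60721 on control diet, and Apoa2 had 82173, 97510 and 72325 on Western diet and 100379, 96769 and 96477 on control diet. The groups overlapped in each of these 4 genes.

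**Figure D3:**
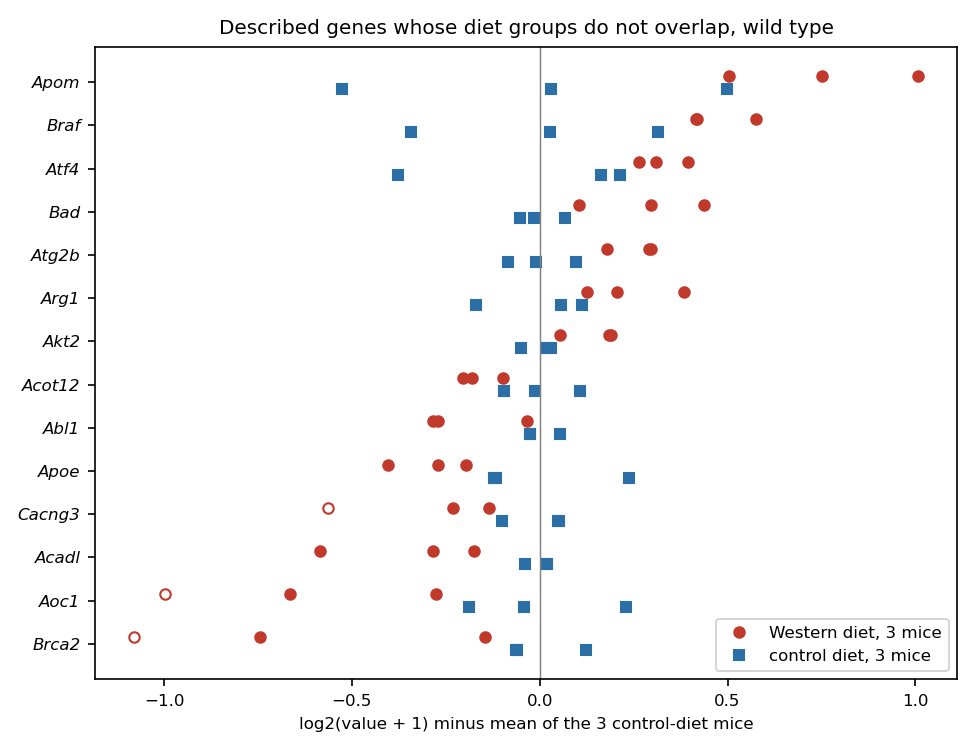
Values of each wild-type mouse for the genes described here whose diet groups do not overlap, on the log2(value + 1) scale relative to the mean of the 3 control-diet mice. Red circles are Western-diet mice, blue squares control-diet mice, and open circles values listed at the floor of 21. For Apom and Acot12 the nearest mice of the groups almost touch, and the lowest values of Cacng3, Aoc1 and Brca2 are at the floor.

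Atf4 and Asns were both higher in the group means. Atf4, the transcription factor of the integrated stress response and of amino acid shortage (chr15:80255184-80257545), had 1546, 1597 and 1693 on Western diet and 1442, 992 and 1493 on control diet. The groups did not overlap, and the distance between them came mainly from control-diet replicate 2. The log2 difference was 0.32 ± 0.14 (95% interval 0.01 to 0.63; adjusted p = 0.712), and 0.13 without that mouse. Asns, asparagine synthetase and a known target of Atf4 (chr6:7675165-7693209), had 79.2, 29.6 and 120 on Western diet and 21, 21 and 39.8 on control diet. Control-diet replicates 1 and 2 were at the floor, and Western-diet replicate 2 lay below control-diet replicate 3, so the groups overlapped. The fitted log2 difference of 1.30 ± 0.46 (95% interval 0.27 to 2.34; adjusted p = 0.563) rests on the floor in 2 mice and was 0.95 with every value raised to at least 32.

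The Asns promoter holds the element through which Atf4 is known to act, and it is shown because both genes had higher means on Western diet. The sequence below runs 5′ to 3′ over the 120 bases before the RefSeq start of Asns (GRCm38.p6, chr6:7693210-7693329, minus strand), with the nutrient-sensing response element TGATGAAAC in capitals.
Asns: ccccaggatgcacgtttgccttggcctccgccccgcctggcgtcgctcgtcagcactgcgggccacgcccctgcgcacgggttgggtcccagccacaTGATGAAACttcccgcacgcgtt
The element lies 23 to 15 bases before the start. On either strand, the same letters occur in 81 of 32851 promoter windows of 300 bases in the RefSeq table (0.247%). Of the 27 genes given with a fitted difference by the naming rule, 21 had a window in that table and Asns alone held the element there. A match describes the letters and not binding.

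The estimates for signalling genes were positive, and none passed the test. With all mice kept, all 6 genes reported here from the list of insulin, mTOR and AMPK signalling had a positive estimate. Of these, 3 did not overlap. Over the 666 rows above the floor in some wild-type library, 291 estimates were higher, and 32 rows did not overlap with Western diet higher. The median log2 difference was 0.17 for the list, against -0.03 over those rows. Bad, a Bcl-2 family member that promotes cell death when it is not phosphorylated by Akt (chr19:6941861-6951905), had 366, 320 and 403 on Western diet and 295, 287 and 312 on control diet. The groups did not overlap, and the means of 363 ± 41.7 on Western and 298 ± 12.7 on control diet (SD, n = 3 each) gave a log2 difference of 0.28 ± 0.07 (95% interval 0.11 to 0.45; adjusted p = 0.563). Akt2, the Akt kinase that carries most of the insulin signal in liver (chr7:27591552-27640826), had 579, 528 and 580 on Western diet and 520, 492 and 515 on control diet. This was a small difference with no overlap (0.14 ± 0.06; adjusted p = 0.712). Akt1 had 421, 371 and 451 on Western diet and 351, 373 and 355 on control diet, and these ranges overlapped.

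Braf, a kinase of the growth factor pathway, had 148, 148 and 165 on Western diet and 138, 87.1 and 113 on control diet. Its log2 difference of 0.47 had an SE of 0.61, because the fit pools the spread over all 4 groups, and was 0.30 without control-diet replicate 2. Akt1s1 and Cab39 had log2 differences of 0.03 and 0.02, with 95% intervals of -0.17 to 0.23 for Akt1s1 and -0.25 to 0.28 for Cab39. Akt1s1 had 728, 632 and 806 on Western diet and 666, 692 and 758 on control diet. Cab39 had 552, 506 and 602 on Western diet and 543, 523 and 573 on control diet. In both genes Western-diet replicate 3 was the highest mouse of its group. Without that mouse the Western-diet mean of each gene was below its control-diet mean, so their positive direction rests on 1 library. Atg2b, which transfers lipid to growing autophagosomes (chr12:105613539-105685297), had 376, 348 and 377 on Western diet and 290, 328 and 305 on control diet. Its groups did not overlap, and its log2 difference of 0.26 ± 0.07 (95% interval 0.10 to 0.41; adjusted p = 0.563) stayed between 0.21 and 0.30 whichever wild-type or knockout mouse was left out.

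The urea cycle genes had higher means on Western diet, with a median log2 difference of 0.28 over 3 genes, none of which passed. Arg1, the arginase that releases urea (chr10:24915207-24927470), had 16680, 15762 and 18868 on Western diet and 15031, 12846 and 15637 on control diet. The groups lay close but did not overlap (0.24 ± 0.27; adjusted p = 0.97), and the difference was 0.15 without control-diet replicate 2. Ass1, argininosuccinate synthase, had 33643, 33085 and 35492 on Western diet and 30160, 20159 and 36167 on control diet. Asl, argininosuccinate lyase, had 5104, 4051 and 5337 on Western diet and 3962, 2809 and 5175 on control diet. Both overlapped, and control-diet replicate 2 was the lowest mouse of each of the 3 genes. Without it the median log2 difference of the list was 0.08.

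In tryptophan breakdown, Acmsd, which diverts a kynurenine pathway intermediate from NAD synthesis (chr1:127729413-127767564), had 339, 308 and 435 on Western diet and 233, 69.2 and 310 on control diet. The ranges overlapped by a narrow margin, and the log2 difference of 1.05 ± 0.50 (adjusted p = 0.803) was 0.41 without control-diet replicate 2. Aadat, a kynurenine aminotransferase, had 369, 444 and 463 on Western diet and 498, 464 and 359 on control diet, with no order between the groups. Bhmt, which remethylates homocysteine with betaine, had 45043, 56692 and 46575 on Western diet and 52873, 48629 and 49893 on control diet, which also overlapped. Cad, the enzyme that starts pyrimidine synthesis, had 173, 136 and 260 on Western diet and 118, 135 and 143 on control diet (0.48 ± 0.23; adjusted p = 0.803), with Western-diet replicate 3 the highest. Without it the difference was 0.22.

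Alcohol and aldehyde dehydrogenases gave a mixed picture, with 2 of 5 estimates higher, 3 lower and no group separated. Adh4, which also oxidises retinol, had 3509, 2267 and 4179 on Western diet and 2341, 1749 and 3349 on control diet (0.43 ± 0.27). Without control-diet replicate 2 this was 0.20, and without Western-diet replicate 3 it was 0.24. Aldh2, the mitochondrial acetaldehyde dehydrogenase, had 20943, 25177 and 18107 on Western diet and 25354, 27850 and 23930 on control diet (-0.27 ± 0.15), and without Western-diet replicate 3 it was -0.16. Adh1 had 33719, 27904 and 32962 on Western diet and 29207, 29979 and 36706 on control diet, and these ranges overlapped.

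The genes of fatty acid and sterol synthesis from acetyl-CoA did not separate by diet. Acaca, the cytosolic acetyl-CoA carboxylase, had 914, 976 and 797 on Western diet and 878, 1136 and 1003 on control diet. Acacb, its mitochondrial counterpart, had 967, 900 and 567 on Western diet and 813, 405 and 1306 on control diet. Acat2, a cytosolic thiolase of sterol synthesis, had 1273, 1475 and 935 on Western diet and 1510, 593 and 1635 on control diet. For Acacb and Acat2 control-diet replicate 2 was the lowest of the 6 mice. The median log2 difference of these 3 genes was 0.07 with all mice and -0.38 without that mouse, so its direction rests on 1 control-diet library.

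Control-diet replicate 2 differed from the other control-diet mice in more of the named genes than any other wild-type library did from its own group. This is the library described above as lying with the knockouts. In 8 of the 111 genes it lay over 1.5-fold beyond both others, with Apoa4, Apoc2, Bcl2a1a and Cacng7 higher and Acacb, Acat2, Acmsd and Agxt lower, against 0 to 3 genes for each of the other 5 libraries. Over the 545 rows above the floor in all 6 libraries, the SD of the log2 difference between 2 control-diet mice was 0.39 and 0.42 in pairs with replicate 2 and 0.26 in the remaining pair. Between 2 Western-diet mice it was 0.28 to 0.42, and between mice of different diets 0.18 to 0.60, so the spread within a diet was as wide as many distances between diets. Apoa4 was 27043 in that library, and in knockout mice 39648, 19838 and 38929 on Western diet and 33899, 2685 and 25298 on control diet. Acmsd was 69.2 in that library, and in knockout mice 68.3, 91.4 and 121 on Western diet and 101, 149 and 111 on control diet. Apom was 2005 in that library, and in knockout mice 1899, 2208 and 2070 on Western diet and 2039, 3108 and 1975 on control diet. In each of these genes control-diet knockout replicate 2 was the knockout library nearest the other wild-type mice. Without control-diet wild-type replicate 2 the log2 differences of Acadl, Bad, Akt2 and Atg2b were -0.34, 0.25, 0.12 and 0.30. The closest pair of wild-type libraries was Western-diet replicate 2 and control-diet replicate 1.

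**Figure D4:**
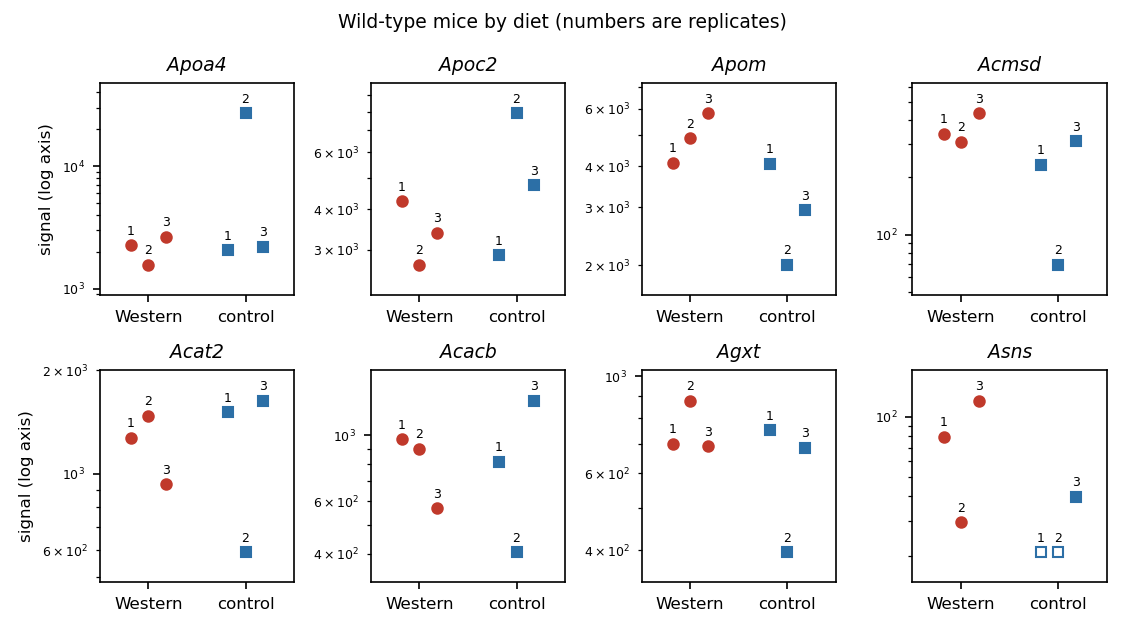
Normalized signal on log axes in each wild-type mouse for 8 genes, Western diet at left and control diet at right, with the replicate number beside each point and open symbols at the floor of 21. Control-diet replicate 2 stands far above the others for Apoa4 and Apoc2 and below the others for Apom, Acmsd, Acat2, Acacb and Agxt.

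Some genes near the floor were lower on Western diet. Aoc1, a diamine oxidase that degrades histamine (chr6:48895255-48909188), had 26.7, 35.3 and a listed 21 on Western diet and 50.6, 37.6 and 41.7 on control diet. Brca2, a homologous recombination protein (chr5:150522297-150570147), had 26.7, 41.0 and a listed 21 on Western diet and 49.6, 43.5 and 43.6 on control diet. For both, the groups stay apart even if the listed 21 stood for 31.6, while the fitted differences of -0.65 ± 0.20 and -0.66 ± 0.22 depend on it. A floor of 32 in every library gave -0.37 and -0.38. Cacng3, a calcium channel subunit, had 26.7, 28.6 and a listed 21 on Western diet and 32.7, 32.6 and 29.4 on control diet. Because 31.6 is above its lowest control value, whether its groups overlap is not settled, and its log2 difference of -0.31 became -0.02 with values raised to 32. Abl1, a tyrosine kinase, had 126, 125 and 149 on Western diet and 150, 158 and 150 on control diet (-0.20 ± 0.12), well above the floor but with Western-diet replicate 3 within 1 unit of the control-diet mice.

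Cacna1a and Cacna1e, channel genes near the floor, were 23.0, 22.9 and 21 on Western against 21 throughout on control diet, and 21 throughout on Western against 34.7, 29.7 and 21 on control diet. Cacng7 had 38.7, 32.5 and 45.1 on Western diet and 44.6, 82.1 and 49.3 on control diet, with control-diet replicate 2 again the highest, and its log2 difference of -0.55 became -0.28 without that mouse. Of 8 listed immune and complement genes, 2 (Alox15 and Blk) stood at 21 in all 6 mice, and of the 6 others only Arg1, also a urea cycle gene, separated the groups. Of 5 DNA repair and cell cycle genes only Brca2 did. Over all 111 genes, 7 were at 21 in all 6 wild-type mice, 83 were above it in all 6, and 55 of these 83 had a log2 difference under 0.2 in size. Arid2, a chromatin remodelling subunit, had 32.2, 34.4 and 43.6 on Western diet and 27.8, 38.6 and 22.7 on control diet (0.32 ± 0.20; 0.15 to 0.52 when a library was left out, the lowest without control-diet replicate 3, the highest without control-diet replicate 2, and 0.09 at a floor of 32). Atox1, a copper chaperone, had 1433, 1345 and 1156 on Western diet and 1396, 1552 and 1541 on control diet (-0.19 ± 0.08, and -0.11 without Western-diet replicate 3). Both genes overlapped.

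After Cat, rows of smallest p are given by the name they carry only. The row named Zfp65 averaged 330 on Western and 398 on control diet (-0.27 ± 0.04; adjusted p = 0.0999), and that named Ctsd 52.8 and 78.6 (-0.56 ± 0.10; adjusted p = 0.139). The row named Eme1 averaged 5114 on Western and 1999.6 on control diet (1.28 ± 0.35; adjusted p = 0.563). None passed.

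The wild-type diet difference was then set against that of the knockout mice, which share no library with it. No row passed the test of the difference between the 2 diet effects (0 of 736, or 0%; 44 rows, 5.98%, at an unadjusted p under 0.05, with 2.99% higher and 2.99% lower). Of these 44 rows, 10 lay from A2m to Cat. Nor did any row pass the diet test within knockout mice (0%; 17 rows, 2.31%, at an unadjusted p under 0.05, with 1.09% higher and 1.22% lower). Of the 15 genes whose groups did not overlap in wild type, 10 had the opposite sign in knockout mice and 5 (Abl1, Aoc1, Arg1, Braf and Brca2) the same sign, with no test of these counts. The share of opposite signs over the other rows was not counted, so these counts are not read as particular to these genes. The knockout diet groups themselves did not overlap in 8 of the 111 genes, against 44 of all 736 rows (5.98%). Brca2 did not overlap in either genotype and was lower on Western diet in both, with 42.2, 35.0 and 45.6 in Western-diet and 69.2, 57.8 and 54.4 in control-diet knockout mice.

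Akt2 and Atf4 were separated in both genotypes and in opposite directions. In knockout mice Akt2 had 435, 482 and 477 on Western diet and 517, 515 and 571 on control diet, lower on Western diet where wild-type mice were higher. The difference between the diet effects, wild type minus knockout, was 0.34 ± 0.08 on the log2 scale (adjusted p = 0.46). Atf4 had 1090, 1009 and 1151 on Western diet and 1243, 1202 and 1222 on control diet in knockout mice, and its diet effects differed by 0.50 ± 0.19 (adjusted p = 0.789), or by 0.31 without control-diet wild-type replicate 2. For Bad, Atg2b, Acadl and Apoe the diet effects differed by 0.34 ± 0.10, 0.29 ± 0.10, -0.42 ± 0.14 and -0.47 ± 0.18 (adjusted p = 0.516 to 0.742). These differences were therefore not established with all libraries weighted equally. With library weights, 19 of 736 rows passed the test of the difference. Of the 111 rows from A2m to Cat, 7 passed (Acadl, Acat1, Akt1, Akt2, Atg2b, Bhmt and Cacng3). The estimation of these weights stopped before it converged, so the differences of these genes are not taken as established. Without control-diet replicate 2 of either genotype, a choice made after the data were seen, 0 rows passed the test of the difference. The labelled ages in knockout mice were 217 to 252 days on Western diet and 250 to 259 days on control diet, so age and diet are not fully separated in that genotype.

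**Figure D5:**
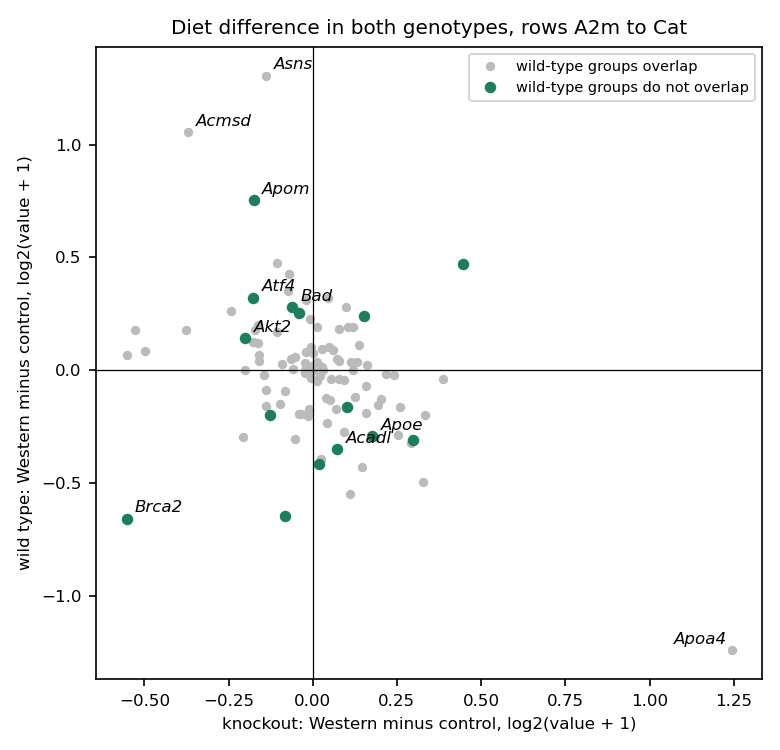
Western minus control diet difference on the log2(value + 1) scale in knockout mice (x) and wild-type mice (y) for the 111 rows from A2m to Cat. Green points are the 15 genes whose wild-type groups do not overlap, and grey points are the other rows. Akt2 and Atf4 lie above 0 in wild type and below 0 in knockout, and Apoa4 lies far out in opposite directions.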

How the data were processed

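Total RNA of 12 male mice was hybridised with barcoded probes of a NanoString metabolic panel, as the labels' protocols state. The deposited table gives 1 normalized signal for each row in each library. How the authors set reference genes and background is not given in the sources used here. Low values above the lowest listed value of 21 were, to within 0.1 of a count, whole multiples of 1 step in each library (100% of them), and this step gave the value of 1 count and the recovered total. The floor hides the counts behind a listed 21, and a count model was therefore not applied.

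Groups follow the labels; replicate numbers follow the order of samples and pair nothing. Litters and batches are not stated, and p-values cover only the spread between the mice sampled. The labels give diet durations of 16 to 27 weeks, rising by 1 per library, whereas the growth protocol gives 16 weeks, and the labelled durations were not used.

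Values were fitted as log2(value + 1) with limma 3.58.1 in R 4.3.3 (lmFit, eBayes; 4 group means, 12 libraries, 8 residual degrees of freedom), with Benjamini-Hochberg adjustment over 736 rows and a threshold of 0.05. The fit was tested on simulated data. The pseudocount understates differences of low rows, while the floor can move them either way. Promoter and gene positions are those of RefSeq, GRCm38.p6; all 111 names matched a symbol. The members, lists and tests were chosen with earlier results of these data known, and list members get counts and medians with no list test. Genes named were those from A2m to Cat whose groups do not overlap, the 12 of smallest p in each direction, the 6 of highest signal, up to 6 members of each list, and 6 of smallest p for the genotype difference; after Cat, 4 rows. A few genes that the rule takes are left out of the text, and the lists were counted without them. Alternatives were median centring, a low-value filter (above 21 in at least 3 libraries), log2(value + 10), robust variances with an intensity trend, library weights, age as a covariate, only the 6 wild-type libraries, a floor of 32, and leaving out each library. Precision is that of 3 mice per group; intervals of fitted differences cover the spread between mice.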

Additional observations from a re-analysis of the deposited data

How the results depend on the processing

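For diet in wild type, alternatives were run for the 27 genes of the naming rule and for Apoa4, Apoc2, Acaa2, Asl and Ass1. None of these changed direction or passed the threshold (703 values), except that Cacna1a had no difference left at a floor of 32. The smallest adjusted p was 0.0505, for Atg2b with library weights. Other genes with a fitted difference, Akt1s1 and Cab39 among them, were not run gene by gene. The count of rows passing for diet in wild type was 1 with library weights and 0 to 1 when a library was left out: the row named Zfp65 with library weights, that named Ctsd without control-diet replicate 1 and that named Smad4 without Western-diet replicate 2. For the difference of diet effects, Akt2, Atg2b and Acadl passed with library weights, and the count of rows passing was 19 with library weights and 0 to 1 without a library (1 without Western-diet replicate 2). For diet in knockout it was 26 with library weights (Akt2 and Bhmt among them) and 2 with age as a covariate. The estimation of library weights stopped before it converged. With fewer mice, groups overlap less by construction: 109 to 211 of all rows and 19 to 36 of the rows from A2m to Cat did not overlap when a wild-type library was left out, the highest without Western-diet replicate 2, and 174 and 34 when control-diet replicate 2 and Western-diet replicate 3 were omitted together, a choice made after seeing the data. List medians when a library was left out were -0.143 to 0.015 for apolipoproteins, -0.381 to 0.351 for lipid synthesis, 0.083 to 0.466 for the urea cycle and -0.086 to 0.087 for apoptosis genes. Omitting both libraries gave 0.015 for the urea cycle and 0.123 for apoptosis genes. The values 0.015, -0.381, 0.083 and 0.087 of these ranges were those without control-diet replicate 2. With control-diet wild-type replicate 2 and control-diet knockout replicate 2 both left out, also chosen after seeing the data, 0 rows passed in each of the 3 comparisons. The cause was not tested. No paired analysis was possible because the labels carry no replicate numbers. Low rows are limited by the floor, above all in Western-diet replicate 3.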
